A study of Rattus norvegicus with 4 samples.

Results

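Homeostatic astrocyte function genes were followed on 4 single-colour microarrays of primary rat cortical astrocytes. The list named 33 genes for glutamate uptake, gap junction coupling, potassium and pH control, metabolism and the glial lineage. Members were found by gene symbol, and 29 of the 33 had a probe to which the platform annotation gives that 1 symbol. None of the 29 had a second such probe, so the probe with the highest mean was the only one. Aldh1l1, Glul, Cpe and Ntsr2 had none and were not analysed here. The 29 stood among 18166 genes in all.

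The cells came from the cerebral cortex of Sprague-Dawley rats 1 day old, and 2 days in medium without serum served to remove microglia and meningeal cells. Each of 4 conditions had 1 culture and 1 array. Control siRNA went into 3 of the cultures, of which the untreated one received nothing else, the next interferon-γ (IFN-γ) and the last IFN-γ together with a compound that the labels call GW. The remaining culture received SHP siRNA and the same 2 agents. Treatment with the agents, not with siRNA, lasted 3 h. All 4 cultures were therefore transfected with siRNA. No replicate exists for any condition, so no difference below has an error or a test, and effects of a condition cannot be told apart from differences between single cultures or arrays. In such mixed cultures fewer cells of a type and less RNA per cell cannot be told apart.

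Astrocytes clear glutamate and potassium from around synapses, pass ions and metabolites to each other through gap junctions, and supply neurons with glutamine and lipids. Factors of the SOX and NFI families set and keep this glial state. The basic helix-loop-helix repressors of the HES family, classic Notch targets, and the ID proteins, which bind such factors and keep them off DNA and are classic targets of bone morphogenetic proteins (BMPs), hold back neuronal differentiation.

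Values are log2 signals as deposited. A set of 4 values is given throughout in the order untreated, IFN-γ, IFN-γ with GW, and SHP siRNA with IFN-γ and GW. The median of all values in the table, 5.83, marks the region below which values may lie at the background of the arrays. Slc6a11, Slc7a10, Gjb6 and Hes5 lay below it on every array, and the other 25 members above it on every array. Of 10 defining astrocyte markers 9 had a probe, and all 9, 7 of them members, lay above 5.83 on all arrays, with Gfap, the intermediate filament of astrocytes, at 12.03, 12.06, 12.11 and 12.06. All 17 microglia markers with a probe lay above it too. Their mean log2 values were 9.31, 8.93, 8.51 and 8.68. Nr0b2, the gene of small heterodimer partner (SHP), stood at 5.33, 5.14, 5.20 and 3.45, all below the table median.

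Across the 4 arrays the 25 genes outside the HES and ID group, and Hes5 within it, kept within 1.5-fold of themselves between their highest and lowest array. The median member spanned 0.31 log2, a 1.24-fold range, beside 0.34 for the median of all genes. The smallest span was that of the nuclear factor gene Nfix, 0.10. A span of 1.5-fold or more was found for 3 members (10.3%), Hes1, Id3 and Id4, and for 17.4% of all genes. These 3 were the members that were higher in both cultures with GW than in both without it by the most, as the plot of differences from the untreated array shows.

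**Figure D1:**
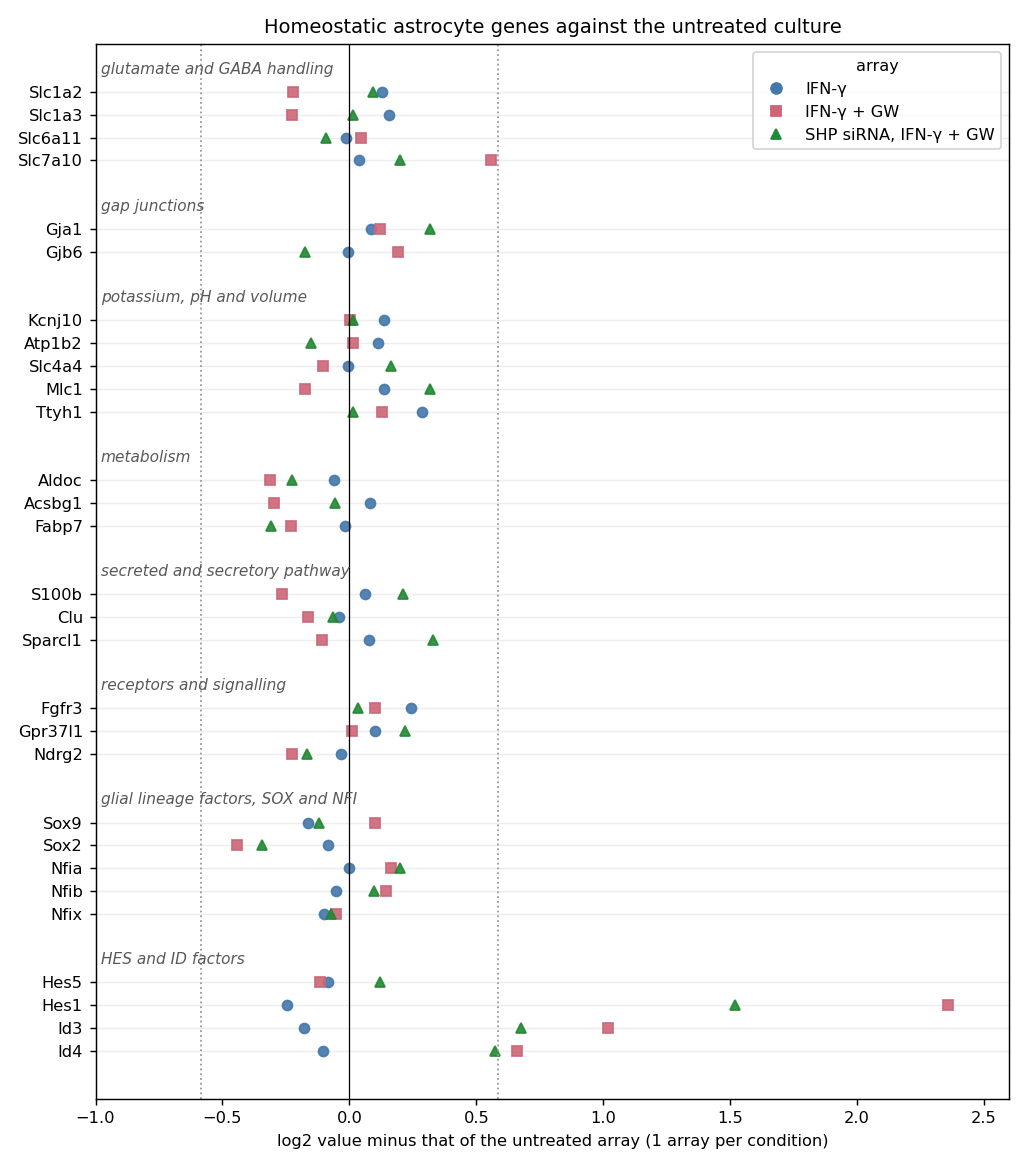
Difference of each member's log2 value from the untreated array (horizontal axis, log2) for the IFN-γ array (circles), the IFN-γ with GW array (squares) and the SHP siRNA array with IFN-γ and GW (triangles), 1 array per condition, with dotted lines at 1.5-fold. The 25 genes outside the HES and ID group stay between the dotted lines, while Hes1 reaches 2.36 and Id3 1.02 with IFN-γ and GW.

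With IFN-γ alone the homeostatic genes, like most genes, stood near their untreated levels. A difference of 1.5-fold was reached by 0 of the 29 members upward and 0 downward, where 2.54% of all genes reached it upward and 1.63% downward. Of all genes 95.8% stayed within 1.5-fold, so counts of 0 in a list of 29 do not set the members apart. Differences of the members ran from -0.25 for Hes1 to 0.29 for Ttyh1. Their median was -0.0040, with 13 members above 0 and 16 below. That of all genes was -0.03, with 43.5% above 0. All 29 lay inside the middle 95% of all genes, which ran from -0.49 to 0.59.

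With GW on top of IFN-γ, Hes1, Id3 and Id4 were higher and most other members slightly lower. Hes1 was 6.09-fold, Id3 2.29-fold and Id4 1.70-fold higher than with IFN-γ alone. These were the 3 members at least 1.5-fold higher, beside 3.1% of all genes, and none was 1.5-fold lower (0 of 29), beside 3.68%. At 2-fold, Hes1 and Id3 were counted, beside 0.721% of all genes. The median member differed by -0.10, with 11 above 0 and 18 below, and the median of all genes was 0. Of all genes 50.0% lay above 0. Of the 11247 genes with a mean at the table median or above, as 25 members have, 41.1% did. The mean of the members was 0.08, the opposite sign from their median, since it takes in Hes1. The IFN-γ and GW differences share the IFN-γ array, so an error of that array would enter both with opposite signs.

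SHP siRNA, set against control siRNA with both cultures under IFN-γ and GW, went with lower Hes1 and little else among these genes. Hes1 was 1.79-fold lower, the 1 member that reached 1.5-fold lower, beside 1.73% of all genes, and at 2-fold 0 of 29 were lower, beside 0.264%. None was 1.5-fold higher (0 of 29), beside 1.46%. The median of the members was 0.03, with 16 above 0 and 13 below, and that of all genes -0.0074. The GW and SHP siRNA differences share the IFN-γ with GW array, so an error of that array would enter both with opposite signs. Hes1 still stood 3.40-fold higher with SHP siRNA, IFN-γ and GW than with IFN-γ alone, a pair of arrays that leaves the shared one out.

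**Figure D2:**
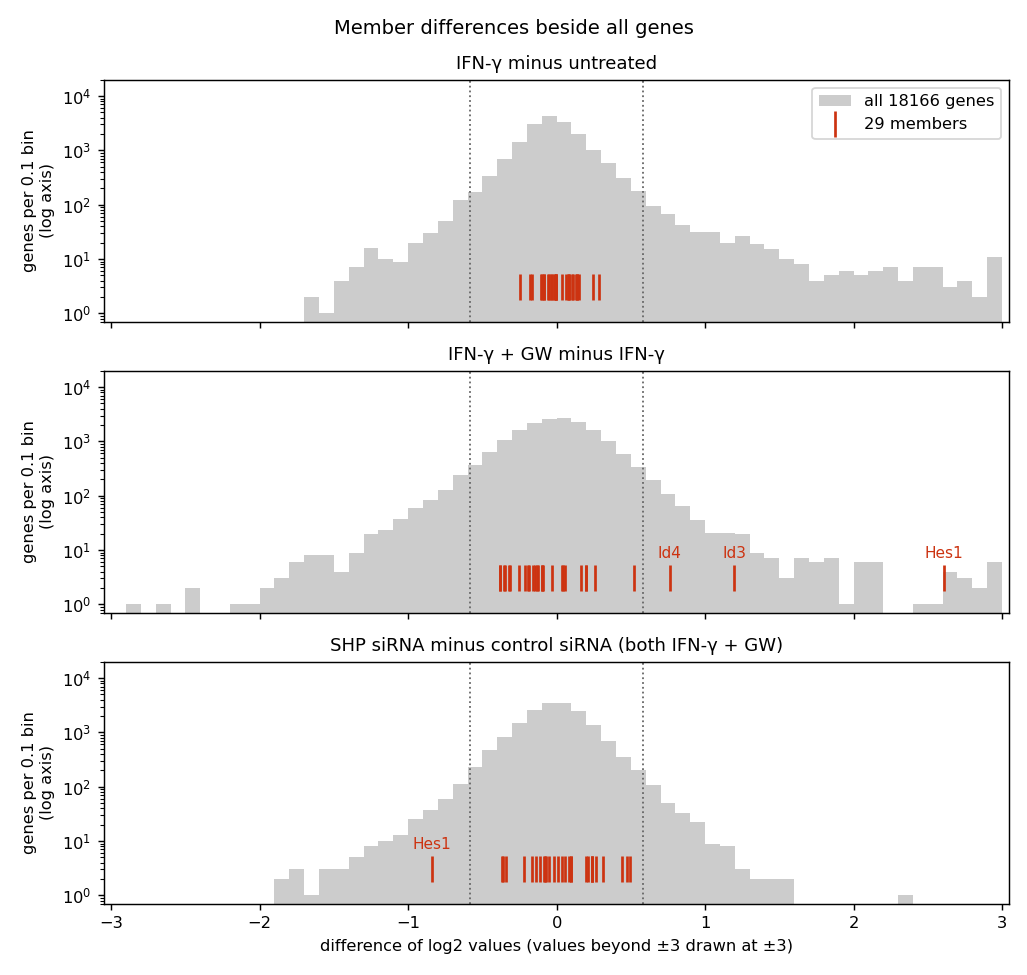
Differences of log2 values (horizontal axis) of all 18166 genes (grey bars, number of genes per bin on a log axis) and of the 29 members (red ticks, drawn at one height) in the 3 main comparisons, with dotted lines at 1.5-fold and values of all genes beyond the axis drawn at that edge. Only the named members lie beyond the dotted lines, Id4, Id3 and Hes1 with GW and Hes1 with SHP siRNA.

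The HES and ID genes were the group in which members differed most from each other. Hes1 stood at 8.25, 8.00, 10.61 and 9.76. Both arrays with GW were high and both without it low, and the SHP siRNA array lay between. Only 15 of 18166 genes, Hes1 among them, had a GW difference as high as its 2.61, and 92 an SHP siRNA difference as low as its -0.84. Hes5, a close relative of Hes1, stood at 5.21, 5.13, 5.09 and 5.33, below the table median on every array, and its 4 values span 0.24. Id3 had 9.03, 8.85, 10.04 and 9.70, and 91 genes had a GW difference at least as high as its 1.20. Id4 had 8.33, 8.23, 8.99 and 8.90, with a GW difference of 0.76 that 276 genes reached. For both ID genes the arrays with GW were again the high ones. Their SHP siRNA differences, -0.34 and -0.09, lay inside the middle 95% of all genes. With IFN-γ alone all 4 genes of the group lay slightly below the untreated array, between -0.25 and -0.08.

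The promoters of Hes1 and Hes5 are shown because both genes are textbook Notch targets and Hes1, but not Hes5 with its values below the table median, was higher with GW here. The pair was chosen with their values known. Each sequence is the 250 bases before the gene's RefSeq start in rat assembly GRCr8, read 5′ to 3′ on the gene's strand, and capitals mark the letters TGGGAA or their reverse complement, the core bound by the Notch effector RBPJ. Hes1 lies on the minus strand at chr11:84213046-84213295 and Hes5 on the plus strand at chr5:170804327-170804576.
Hes1: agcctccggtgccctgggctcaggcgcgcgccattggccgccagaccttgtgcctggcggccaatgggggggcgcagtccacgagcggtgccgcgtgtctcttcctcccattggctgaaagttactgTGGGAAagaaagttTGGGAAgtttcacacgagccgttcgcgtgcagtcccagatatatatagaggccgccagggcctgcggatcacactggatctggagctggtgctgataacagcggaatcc
Hes5: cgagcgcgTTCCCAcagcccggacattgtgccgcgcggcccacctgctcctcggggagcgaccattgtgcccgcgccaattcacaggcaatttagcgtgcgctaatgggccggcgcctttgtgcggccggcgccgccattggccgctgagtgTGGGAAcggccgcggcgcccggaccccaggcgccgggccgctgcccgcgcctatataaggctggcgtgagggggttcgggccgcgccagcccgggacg
Both windows held 2 matches. In Hes1 they began 123 and 109 bases before the start, both on the gene's strand. In Hes5 they began 242 bases before it, on the opposite strand, and 98 bases before it. TGGGAA on either strand occurred in 21.6% of 27456 promoters of the same length and in 8 of the 31 members with an entry. The N box CACNAG, to which HES proteins bind, matched 4 times in the Hes1 window and 0 times in that of Hes5, and 36.8% of promoters held it. Neither of these letters was found in the windows of Id3 and Id4 (0 matches each). The cyclic AMP element TGACGTCA, its core TGACG, the interferon-γ activated site (GAS) letters TTCNNNGAA, the palindromic NFI site and a serum response site had 0 matches in all 4 windows, and 1.70%, 19.0%, 7.52%, 0.0401% and 0.0364% of promoters held them. The core lies within the full cyclic AMP element, and other motifs may overlap. These matches are letters in a window and were not measured as binding.

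Relatives of Hes1 and the ID genes in the same pathways were looked at from lists of partner genes. Of 18 BMP and ID partners, 4 were at least 1.5-fold higher with GW and 1 lower, with a median of 0.13. Of all genes 3.1% were that much higher and 3.68% lower. Id1 stood at 8.56, 7.85, 9.95 and 9.20, with a GW difference of 2.10 and an SHP siRNA difference of -0.75. Its 4 values thus had the same order of arrays as those of Hes1, the highest with IFN-γ and GW and the lowest with IFN-γ alone. Id2 had 5.81, 5.33, 6.15 and 5.89, near the table median, so its fold is uncertain. Smad1, which carries BMP signals to the nucleus, was 0.70 higher, and the BMP antagonist gene Nog, named after its value was seen, 0.61 higher. Bmp4, a BMP ligand gene, stood at 7.33, 7.43, 6.50 and 7.09, lowest with IFN-γ and GW. Its difference with SHP siRNA was 0.59, the 1 partner at least 1.5-fold higher there, while Id1 was the 1 lower. Of all genes 1.46% were that much higher there and 1.73% lower. With IFN-γ alone Bmp2, another ligand gene, was 5.57-fold higher, going from 7.01 to 9.49, and it stayed at 9.23 and 9.39 in the GW cultures. Id1 (-0.71) and the decoy receptor gene Bambi (-0.85) were at least 1.5-fold lower with IFN-γ.

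Of 16 Notch pathway partners with a probe, 2 were at least 1.5-fold higher with GW and 1 lower, with a median of 0.29. Of all genes 3.1% were that much higher and 3.68% lower. Nrarp, a Notch target that feeds back on the pathway, stood at 6.07, 6.35, 8.12 and 7.66, high on both GW arrays, and its GW difference was 3.41-fold. Hey1, a relative of the HES genes, had 8.33, 7.77, 8.41 and 8.16. It was 1.56-fold higher with IFN-γ and GW than with IFN-γ alone, and near the untreated value there. With IFN-γ alone it was 0.56 log2 lower than untreated, a difference that shares the IFN-γ array with the GW difference. Hey2 stood at 8.19, 7.10, 7.54 and 7.26, below its untreated value on both GW arrays. The ligand gene Dll1 was 0.76 lower with GW. With IFN-γ alone the ligand gene Jag1 was 1.87-fold higher, Hey2 2.14-fold lower and Lfng, which modifies Notch receptors, 0.64 lower. With SHP siRNA 0 of these partners were at least 1.5-fold higher or lower, beside 1.46% and 1.73% of all genes. The receptor genes Notch1 and Notch2, named outside the rule, differed by 0.21 and -0.10 with GW.

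**Figure D3:**
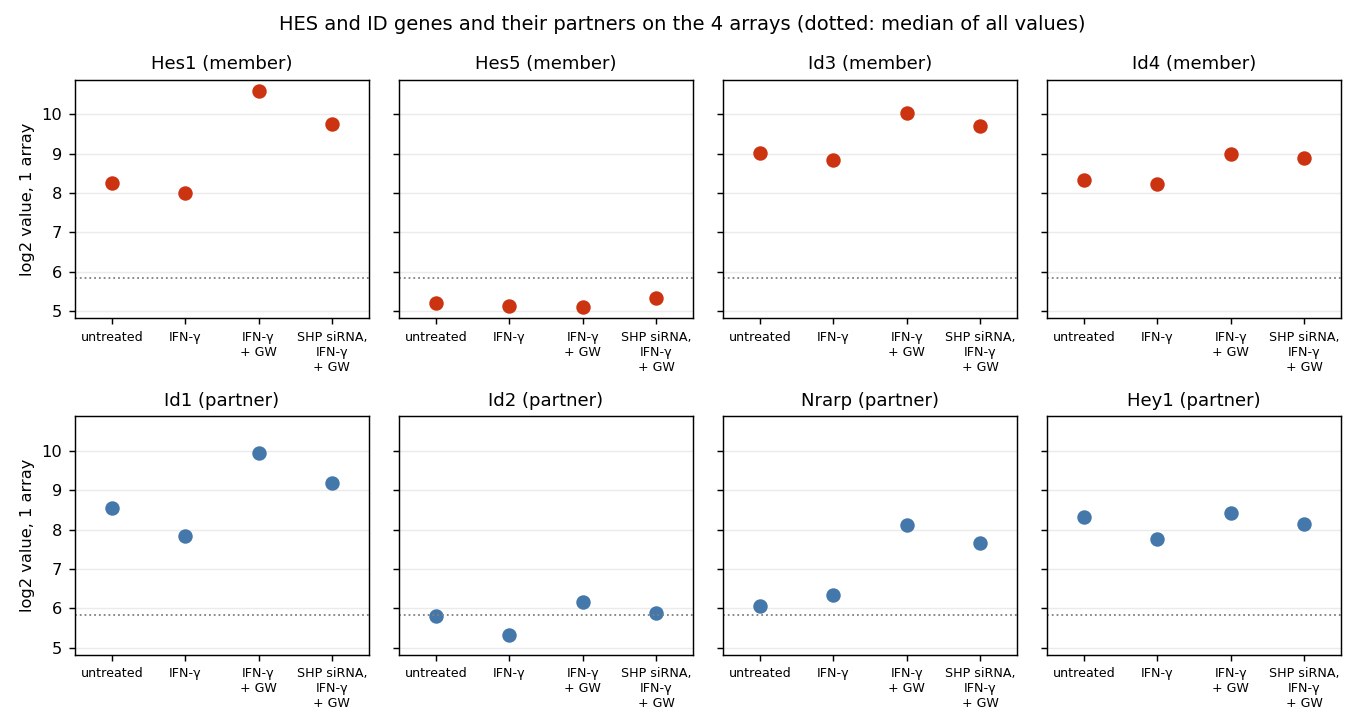
Log2 value of each gene (vertical axis) on the 4 arrays (horizontal axis), 1 point per array, for the 4 HES and ID members (red) and 4 partners (blue), with the table median of 5.83 dotted. Hes1, Id3, Id4, Id1 and Nrarp are higher on both arrays with GW than on both without it, and Hes5 stays below 5.83. The 4 partners drawn were all higher with IFN-γ and GW than with IFN-γ alone. Partners lower there, such as Bmp4 and Dll1, are not drawn.

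Markers of immediate early responses moved on the same arrays. Of 22 such genes with a probe, 20 were at least 1.5-fold higher with GW, beside 3.1% of all genes. With SHP siRNA 15 were at least 1.5-fold lower, beside 1.73%. Their mean log2 values were 7.89, 8.73, 10.73 and 9.82. Unlike Hes1 and the ID genes they were also higher with IFN-γ alone, 14 of 22 by at least 1.5-fold, beside 2.54% of all genes. Their part in the values of Hes1, Id3 and Id4 was not tested.

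Genes for uptake of glutamate and related transmitters stood within 1.5-fold in all 3 comparisons. Slc1a3, the glutamate transporter GLAST, had 11.23, 11.38, 11.00 and 11.24. Slc1a2, the main forebrain glutamate transporter, had 8.28, 8.41, 8.06 and 8.37. Both were lowest with IFN-γ and GW, by 0.38 and 0.35 below IFN-γ alone, and stood with SHP siRNA within 0.14 of the IFN-γ array. The GABA transporter gene Slc6a11 had 5.39, 5.38, 5.44 and 5.30. Slc7a10, which carries small neutral amino acids such as glycine and serine, had 4.93, 4.96, 5.48 and 5.12, highest with IFN-γ and GW. Both lay below the table median throughout. The Slc7a10 difference of 0.52 with GW was the largest outside the HES and ID group, and its size depended on the scaling. Centring each array on its median over the 11790 genes whose highest value reached the table median took it to 0.60, past 1.5-fold, and centring on the median over all probes to 0.45. Of 19 partner genes of transmitter handling 0 were at least 1.5-fold higher or lower in the 3 comparisons. Of all genes at most 3.68% were, in either direction. The medians of these partners were 0.08, -0.09 and 0.17.

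Both connexin genes of gap junctions stood within 1.5-fold on all 4 arrays, and with SHP siRNA they differed in direction (0.19 for Gja1 and -0.36 for Gjb6). Gja1, the main astrocyte connexin, had 10.77, 10.86, 10.89 and 11.09. It was highest with SHP siRNA. Gjb6, the second astrocyte connexin, had 5.42, 5.41, 5.61 and 5.24, lowest with SHP siRNA and below the table median on all arrays. Among 9 other connexin, pannexin and junction genes 0 were at least 1.5-fold higher or lower in any of the 3 comparisons. Of all genes at most 3.68% were, in either direction.

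Genes of potassium, pH and volume control lay slightly lower with IFN-γ and GW than with IFN-γ alone, all 5 of them. Against untreated, 4 of the 5 were slightly higher with IFN-γ alone. Both differences share the IFN-γ array, so an error of that array would enter them with opposite signs. For IFN-γ with GW against untreated, 3 of the 5 lay above 0 and 2 below, with a median of 0.0031. Kcnj10, the inward rectifier channel that buffers potassium, had 6.97, 7.10, 6.97 and 6.98. Atp1b2, a subunit of the sodium pump, had 10.19, 10.30, 10.20 and 10.04. The bicarbonate transporter gene Slc4a4 had 8.17, 8.17, 8.07 and 8.33. In these 3 genes all values lay within 0.27 log2 of each other. Mlc1, a membrane protein of astrocyte end-feet linked to volume control, had 11.51, 11.64, 11.33 and 11.83, and its 0.49 with SHP siRNA was the highest difference of any member there. Ttyh1, of the tweety family of membrane proteins, had 9.12, 9.41, 9.25 and 9.14, and its 0.29 was the highest member difference with IFN-γ. All 5 lay below 0 with GW, between -0.31 and -0.10, a direction that turned for Atp1b2 after cyclic loess (0.0029). Among 14 partners 1 reached 1.5-fold, the water channel gene Aqp4, which stood at 11.01, 11.54, 11.31 and 12.01 and was 0.71 higher with SHP siRNA. Of all genes 1.46% were at least 1.5-fold higher there.

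The metabolic genes were lowest in the GW cultures. Aldoc, the brain form of the glycolytic enzyme aldolase, had 11.45, 11.39, 11.14 and 11.23. Acsbg1, an acyl-CoA synthetase, had 9.68, 9.76, 9.38 and 9.62. Fabp7, the brain fatty acid-binding protein of radial glia and astrocytes, had 12.68, 12.66, 12.45 and 12.37. For all 3 both arrays with GW lay below both without it, by -0.31 to -0.06 log2 against the untreated array. Secreted proteins and S100b had a different order with SHP siRNA. S100b, a calcium-binding protein, had 11.09, 11.15, 10.82 and 11.30. Sparcl1, a secreted protein that promotes synapses, had 11.13, 11.21, 11.02 and 11.46. Clu, a secreted chaperone, had 12.94, 12.90, 12.77 and 12.87. All 3 were lowest with IFN-γ and GW, and with SHP siRNA S100b and Sparcl1 were the highest of their 4 values, 0.48 and 0.44 above control siRNA.

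Receptor and signalling genes varied little. Fgfr3, a fibroblast growth factor receptor, had 8.49, 8.74, 8.60 and 8.53. Gpr37l1, a G protein-coupled receptor of astrocytes, had 10.13, 10.23, 10.14 and 10.35. Ndrg2, an astrocyte protein of the NDRG family, had 11.22, 11.19, 10.99 and 11.05. No array was the highest for all 3.

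Lineage factors of the NFI family spanned at most 0.20 log2 over the 4 arrays, and Sox2 was lower in the GW cultures. Nfia had 11.13, 11.12, 11.29 and 11.32. Nfib had 11.20, 11.15, 11.35 and 11.30. Nfix had 11.48, 11.38, 11.42 and 11.40. Nfia and Nfib were slightly higher on both GW arrays, by 0.17 and 0.20 with GW. Sox2, a factor of neural progenitors and glia, had 10.60, 10.51, 10.16 and 10.25, and its -0.44 with IFN-γ and GW against the untreated array was the lowest of any member in that pair. Sox9, which specifies astrocytes, had 6.08, 5.92, 6.18 and 5.97, just above the table median. Among 14 partner factors with a probe, Sox11 (0.82) and Emx2 (0.64) were at least 1.5-fold higher with GW and Sox13 (-0.87) lower. Sox13 was higher with IFN-γ alone (0.72). Of all genes 3.1% were that much higher with GW, 3.68% lower with GW and 2.54% higher with IFN-γ.

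Most members outside the HES and ID group were slightly lower with IFN-γ and GW than with IFN-γ alone, 17 of 25, with a median of -0.13. Among the 22 of them with a mean at the table median or above, 5 lay above 0 and 17 below. Most genes at that level were lower too: of 11247, 41.1% lay above 0, with a median of -0.06. In the uppermost of 4 equal classes of mean level, which holds 22 of the 29 members, the median GW difference of 4542 genes was -0.10, with the middle 95% of them between -0.76 and 0.71, and that of the members in it -0.15. In the lowest class, which holds 0 members, it was 0.09. After quantile normalization these medians were -0.04 for all genes and -0.12 for the members in the uppermost class. The spread of values over probes was narrowest on the IFN-γ with GW array, at an SD of 2.25, against 2.31 on the untreated array. Reference genes were lower as well, with a median of -0.18 and 9 of 11 below 0, and microglia markers had a median of -0.42 with 15 of 17 below 0. The summed linear signal of the microglia markers, taken as 2 to the power of each value, was 13763, 10674, 7608 and 8463 on the 4 arrays. The part of array scale and of other cells in the members' differences was not tested. The IFN-γ with GW array gave the lowest value for 12 of 29 members (41.4%) and for 26.1% of all genes. Other pairs of arrays with and without GW showed less of a lowering for the 25 members outside the HES and ID group. For IFN-γ with GW against untreated, 12 lay above 0 and 13 below, with a median of -0.05. SHP siRNA with IFN-γ and GW gave 11 above and 14 below against IFN-γ (median -0.04). Against untreated it gave 14 above and 11 below (0.01).

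**Figure D4:**
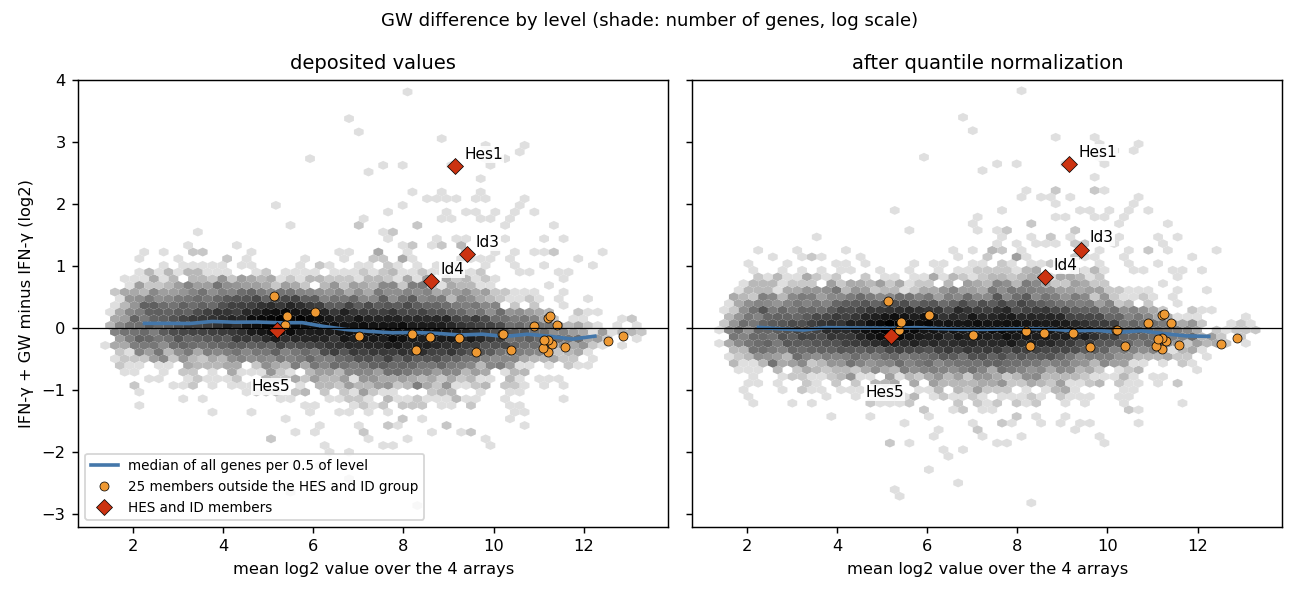
GW difference, the IFN-γ with GW array minus the IFN-γ array (vertical axis, log2), by mean log2 value over the 4 arrays (horizontal axis), in the deposited values (left) and after quantile normalization (right), with all genes as grey shade, their median as a blue line, and the members as points. Orange members at high level lie near the blue line, and Hes1, Id3 and Id4 lie well above it in both panels.

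With SHP siRNA 15 of the 25 members outside the HES and ID group lay above 0 and 10 below, with a median of 0.06, beside 48.4% of all genes above 0. Meningeal and fibroblast markers were higher on that array beside them, with a median of 0.46. At least 1.5-fold higher were 5 of 14, beside 1.46% of all genes, among them Postn (1.43), Pdgfra (0.72) and Col3a1 (0.71). The mean log2 values of the 14 were 7.55, 7.57, 7.45 and 7.87 and their summed linear signal 7964, 7923, 7453 and 8905. Microglia markers lay higher on that array as well, with a median of 0.17 and 14 of 17 above 0, and 1 of them, Ptprc (0.59), at least 1.5-fold. The part of both marker lists in the higher values of Mlc1, S100b, Sparcl1 and Aqp4 was not tested. Of the 9 defining astrocyte markers, 7 of them members, 7 lay above 0 with a median of 0.24. Of 32 other astrocyte-enriched genes, 24 lay above 0 with SHP siRNA and 8 below, with a median of 0.10. Of these 32, beside 1.46% of all genes, 1 was 1.5-fold higher with SHP siRNA, the phospholipase gene Pla2g7 (0.79). Beside 1.73% of all genes, 1 was lower, the tissue factor gene F3 (-0.77). With GW the same genes had -0.70 and 0.84, a pair of differences that share the IFN-γ with GW array. F3 stood at 8.26, 8.25, 9.09 and 8.32 and Pla2g7 at 10.56, 10.54, 9.84 and 10.63, so that the IFN-γ with GW array alone stood apart from the other 3.

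Differences without a shared array were set side by side for the members. IFN-γ with GW against untreated, and SHP siRNA with IFN-γ and GW against IFN-γ, use all 4 arrays once, and each sets a culture with GW against one without. Hes1 had 2.36 and 1.76, Id3 1.02 and 0.86, and Id4 0.66 and 0.67. In the first pair 3 members were at least 1.5-fold higher, beside 3.9% of all genes, and 0 lower, beside 4.84%. In the second pair the same counts, 3 and 0, stood beside 2.17% and 3.08%. Over the 29 members the Pearson correlation of these differences was 0.88 (Spearman 0.44). Without the HES and ID group it was 0.30 over 25 members, and over all 18166 genes 0.44. Over the 11247 genes with a mean at the table median or above it was 0.55. Genes share their arrays and are not independent, so these are descriptions. IFN-γ and siRNA also differ within these pairs, in one or in the other, so neither pair isolates GW. For IFN-γ against untreated and SHP siRNA against control siRNA, the other main pair without a shared array, the correlation was 0.46 over the members, 0.23 without the HES and ID group and 0.10 over all genes. Over the 11247 genes it was 0.16. The last such pairing was SHP siRNA with IFN-γ and GW against untreated, beside IFN-γ with GW against IFN-γ. It also sets GW against no GW, and gave 0.83 over the members (Spearman 0.35). Without the HES and ID group it gave 0.13, over all genes 0.34, and over the 11247 genes 0.41.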

How the data were processed

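For each of 29489 probes the deposited table gives 1 number on each of the 4 arrays. These deposited values were taken to be log2 because their range is 1.14 to 13.4. Neither file nor labels state the log base. Sense cDNA made from total RNA was fragmented and biotin-labelled, per the labels' protocols. Background correction, probe summary, normalization: not given in the sources used here. Of the probes, 18511 carry 1 symbol in the platform annotation, 575 several and 10403 none, and RefSeq identifiers (GRCr8) of 18394 supplied current symbols. The probe with the highest mean stood for a gene, which left 18166 genes, with no filter on low values.

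Each comparison is a difference of log2 values between 2 arrays, counted at 1.5-fold and 2-fold. With 1 array per group no test was made, and the number of arrays limits the precision. Members and lists were chosen with earlier results of these data known. Named genes are all members and, per partner list and main comparison, up to 4 genes with the greatest difference of at least 1.5-fold. For markers and other lists it is up to 3 by size. Names outside this rule are marked. Alternatives were quantile normalization and cyclic loess (limma 3.58.1, R 4.3.3), centring each array on its median over the genes past the filter on the highest value or, added after seeing the data, over all probes, filters at the table median on the highest or mean value, the mean of a gene's probes, the mean of the list and a 2-fold threshold. The calculation of differences and counts was run on simulated data with large changes and little noise. That run covers the calculation only and not the error of single arrays. Promoters of 31 members were in the RefSeq table. The motif letters were searched on both strands.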

Additional observations from a re-analysis of the deposited data

How the results depend on the processing

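Medians of the members stayed within 0.1 log2, and counts within 1.5 times, of the reported ones in 70 recomputed values of the 3 medians and 6 counts. Among these, the mean of a gene's probes could not differ, since no member had a second probe. Both filters dropped only members that had not reached 1.5-fold, so the counts could not differ there either. A count of 0 at 1.5-fold also had to be 0 at 2-fold. The limit of 0.1 is larger than each of the 3 medians in size, so staying within it does not show that a median kept its sign. The 2 exceptions were the mean of the members with GW (0.077 in place of -0.10) and the 2-fold threshold with SHP siRNA, at which 0 members were lower in place of 1. With IFN-γ the median of the members was above 0 after quantile normalization (0.02), centring on the median of the genes past the filter on the highest value (0.0068) and cyclic loess (0.03). The SHP siRNA median ranged down to 0.0088 after cyclic loess. Within each of the 4 scalings at most 3 of 29 members changed sign in any comparison, none of them at or above 0.10 in size. Which members changed sign differed between the scalings. Centring on the median of the genes past the filter shifted the median of all genes with GW by 0.08 and brought the count of higher members to 4. Centring on the median over all probes, chosen after seeing the data, shifted it by -0.07, with a median of the members of -0.17 and a count of 3. No member or named partner past 1.5-fold changed sign. No paired analysis was possible because each group has 1 array, and no array could be left out for the same reason. The pseudocount for linear values was not needed. The size of differences of Slc6a11, Slc7a10, Gjb6 and Hes5, below 5.83 on every array, is limited by unknown background.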
